A study of Mus musculus with 112 samples.

Results

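Gene expression was compared between Paneth cells and progenitors sorted from the small intestine of aged mice, in 12 Paneth samples and 10 progenitor libraries, 22 of the 67 animal-by-population samples (112 libraries) of the series. They were chosen by label alone: the 35 aged Paneth libraries, 2 to 3 technical libraries per animal, were summed per animal (7 males, 5 females), and the aged progenitor libraries (5 males, 5 females) were taken as they stood. Every mouse was of the C57BL/6 strain and carried Lgr5-eGFP-IRES-CreERT2, an allele that places GFP under the Lgr5 stem cell gene, so every group shares it. Aged mice were 23 to 27 months old. The young mice used for 1 comparison were 2 to 3 months old and gave 12 Paneth and 10 progenitor samples. Cells came from crypts of the proximal small intestine. Paneth cells were gated as high in CD24, side scatter and Epcam and negative for GFP, and progenitors as medium to low in GFP, high in Epcam and low in CD24, so CD24 and GFP differ between the groups by the sort. Each sample was a bulk library of 3′ ends of transcripts made from 1 ng of RNA, and 6 animals (3 males, 3 females) gave both populations. The labels do not say whether 2 aged male samples with nearly the same name come from 1 animal.

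Paneth cells sit at the base of the crypt among the stem cells and last for weeks, where most crypt cells are renewed within days. They store lysozyme, alpha-defensins and other antimicrobial proteins in large granules and supply stem cells with signals such as Wnt3, Egf and Notch ligands. Progenitors are the dividing daughters of stem cells that move up the crypt and become absorptive or secretory cells.

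Paneth samples held 4.02 to 11.8 M counts (M, 1e6), 1.37 to 5.68 M of them from nuclear genes, and progenitor libraries held 2.48 to 7.57 M. The 10 most counted nuclear genes took 30.6 ± 6.41% of the nuclear counts in Paneth samples (SD, n = 12) and 6.77 ± 0.816% in progenitors (SD, n = 10). Summed Paneth samples of different animals had a median pairwise r of 0.764 (66 pairs), and progenitor libraries 0.93 (45 pairs) (log CPM across 8718 genes, which are not independent replicates). Technical Paneth libraries of the same animal correlated at 0.635 over 34 pairs and those of different animals at 0.606 over 561 pairs. No 2 aged Paneth libraries held identical counts.

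Lyz1 and Mmp7, the genes that mark the Paneth population, separated the groups completely. Lyz1, the granule lysozyme, lies at chr10:117287797-117292868 on the minus strand of GRCm38 (ENSMUSG00000069515). It ranged from 38580.1 to 90188 CPM (counts per 1e6 counts of the library, scaled by TMM) in Paneth samples, with a median of 67029.7, and from 54.5 to 677 in progenitors, with a median of 327. Mmp7, the metalloprotease that activates alpha-defensin precursors, lies at chr9:7692090-7699585 on the plus strand (ENSMUSG00000018623). It ranged from 1729 to 7608 CPM around a median of 4702 in Paneth samples and from 28.9 to 185 around 102 in progenitors. Every Paneth sample was above every progenitor library for both genes. The log2 difference was 7.89 ± 0.45 (SE) for Lyz1 (edgeR adjusted p = 2.2e-10) and 5.48 ± 0.35 for Mmp7 (edgeR adjusted p = 5.9e-10). Both markers were thus present in every Paneth sample, at low levels also in every progenitor library.

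Promoters of granule genes are printed here because these genes carry the contrast between the populations. They are the 250 bases before the start of each gene as RefSeq gives it on GRCm38.p6, read 5′ to 3′ on the gene's own strand: Lyz1 at chr10:117292869-117293118 (minus), Lyz2 at chr10:117282273-117282522 (minus), Mmp7 at chr9:7691840-7692089 (plus) and Defa21 at chr8:21025295-21025544 (plus). Capitals mark CTTTGA or its reverse complement TCAAAG, the core letters of the motif bound by the TCF/LEF factors of the Wnt pathway.
Lyz1: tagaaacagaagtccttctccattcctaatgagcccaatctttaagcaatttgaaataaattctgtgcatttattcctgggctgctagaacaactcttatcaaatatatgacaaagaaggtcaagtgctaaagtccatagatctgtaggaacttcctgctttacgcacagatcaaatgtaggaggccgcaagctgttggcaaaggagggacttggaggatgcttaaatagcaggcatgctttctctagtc
Lyz2: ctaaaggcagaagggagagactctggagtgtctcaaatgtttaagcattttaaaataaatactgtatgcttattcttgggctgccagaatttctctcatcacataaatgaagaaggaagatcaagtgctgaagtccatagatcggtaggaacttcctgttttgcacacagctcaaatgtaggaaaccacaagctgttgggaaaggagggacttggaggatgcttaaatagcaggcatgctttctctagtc
Mmp7: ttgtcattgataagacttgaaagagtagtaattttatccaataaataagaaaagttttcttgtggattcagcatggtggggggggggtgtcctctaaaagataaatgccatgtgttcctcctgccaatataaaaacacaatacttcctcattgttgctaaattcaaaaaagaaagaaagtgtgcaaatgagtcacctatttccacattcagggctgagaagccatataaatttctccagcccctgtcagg
Defa21: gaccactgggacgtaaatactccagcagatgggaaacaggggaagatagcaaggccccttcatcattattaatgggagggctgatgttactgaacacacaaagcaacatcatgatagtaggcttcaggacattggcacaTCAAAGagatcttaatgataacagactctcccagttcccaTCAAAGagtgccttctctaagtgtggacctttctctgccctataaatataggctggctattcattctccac
The Defa21 window holds TCAAAG 2 times, starting 111 and 71 bases before the gene start, and the windows of Lyz1, Lyz2 and Mmp7 hold neither spelling. The window of Defa22, at chr8:21162027-21162276 on the plus strand, is identical to that of Defa21 over all 250 bases (100% identity). Lyz1 and its neighbour Lyz2 share 60.8% of positions in an ungapped alignment. The printed windows match closely near the gene start and are shifted against each other further upstream, so this share understates their likeness. The motif, on either strand and as the only one searched, occurs in 13.83% of the 32851 promoter windows in the table. It occurs in 12.94% of the 9222 tested genes with a window, in 155 of 1130 genes higher in Paneth samples (13.72%) and in 101 of 709 genes lower there (14.25%). Of the Paneth markers higher in Paneth samples, 15 had a window and 5 of these held the motif. A match says only that the letters are present.

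In all, 11953 genes were tested with edgeR's quasi-likelihood test at a Benjamini-Hochberg adjusted p below 0.05 ("called" below), as the mean of the male and the female difference. Of these, 1463 (12.2%) were higher and 899 (7.52%) lower in aged Paneth cells than in aged progenitors, 19.8% in either direction. With the animal as a block, 750 were higher and 632 lower, and 706 and 523 of the genes called without the block were called again. That fit takes the contrast from the 6 animals that gave both populations, so a call lost there can reflect fewer samples. limma-voom called 1337 higher and 1714 lower without a block. With the animal as a random block, which keeps all samples, it called 1413 and 1832. Every Paneth sample was above every progenitor library for 183 genes (1.53%) and below every one for 70 (0.586%). Counts of list members below are to be read beside these shares of all genes tested. A gene near 0 in 1 population passes the filter on low counts through the other, so counts and medians of lists with such genes are partly set by the filter. The median log2 difference over all genes tested was 0.05. TMM scaling sets the typical gene near 0, and against unscaled library totals the median gene was lower by 1.45 on the log2 scale in Paneth samples (-1.45), with 295 genes higher and 8983 lower (3.18% higher, against 61.94% with TMM). Directions below are therefore relative to the typical gene: a gene or list higher by less than about 1.45 has a negative difference per unscaled count. In these bulk samples fewer cells of a type and less RNA per cell cannot be told apart.

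Genes of granule proteins were far higher in Paneth samples. Of 26 Paneth markers tested, 23 were higher and 1 lower, with a median log2 difference of 7.50. The other two, Kcnn4 and Tnfrsf21, had differences of 0.13 and -0.93 and were not called. In 22 of the 26 all Paneth samples were above all progenitors, beside 1.53% of all genes tested. The marker that was lower, Mptx1, a pentraxin, was scarcely counted (19 counts over the Paneth samples, 126 over the progenitors), with a log2 difference of -2.26 ± 0.82 (edgeR adjusted p = 0.048, and 0.33 with the animal as a block). Its relative Mptx2 went the other way, from 1051 to 6355 CPM in Paneth samples against 0.312 to 40.7 in progenitors, a log2 difference of 8.52 ± 0.79. All 15 alpha-defensin genes that passed the filter, of 24 in the table, were higher, with a median of 7.93, and 14 of them did not overlap between the populations. These genes are near-identical copies, so reads may be shared between them and values of single members are uncertain. Defa24 held 24791 to 80369 CPM in Paneth samples (median 44470.1) and 30.2 to 368 in progenitors (median 227), a log2 difference of 7.87 ± 0.49. Defa21 and Defa22, whose promoter windows are the same, had the largest differences of the family, 9.86 ± 0.68 and 9.79 ± 0.69. Defa29, Defa30, AY761184 and Defa3 followed at 8.98, 8.85, 8.68 and 8.61.

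**Figure D1:**
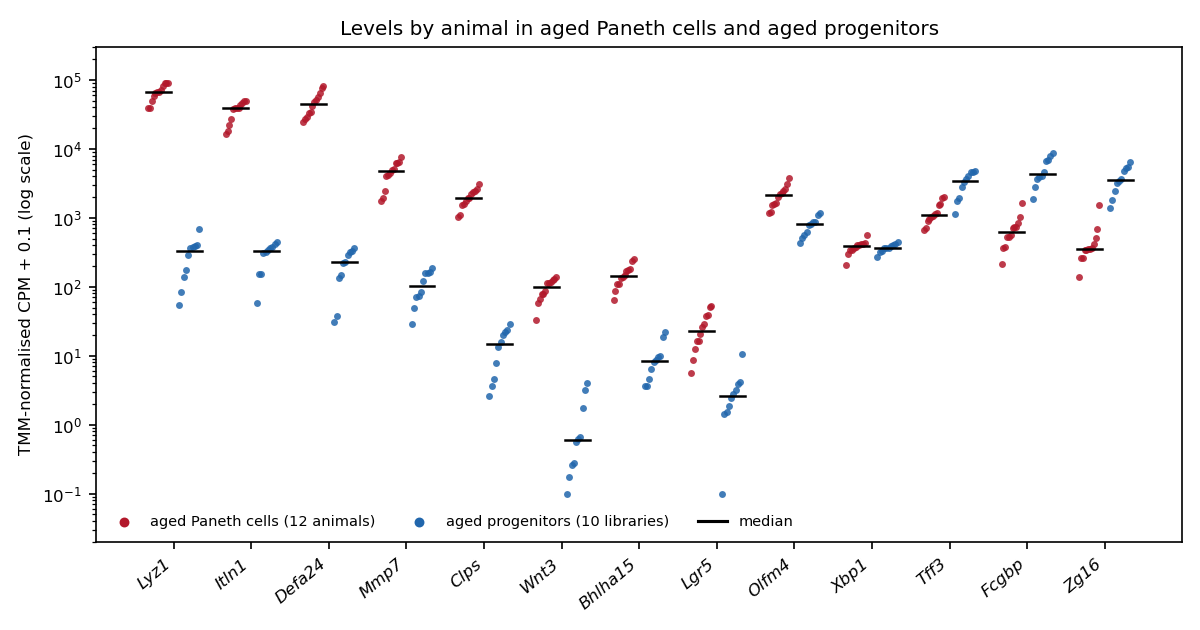
Levels of 13 genes in each of 12 aged Paneth animals (red) and 10 aged progenitor libraries (blue), as TMM-normalised CPM plus 0.1 on a log axis, with the median of each group as a black line. Lyz1, Itln1, Defa24, Mmp7, Clps, Wnt3 and Bhlha15 do not overlap between the populations, Xbp1 overlaps throughout, and Fcgbp lies higher in every progenitor library.

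Among granule enzymes, lectins and antimicrobials, a list that shares members with the Paneth markers, 14 of 25 were higher and 3 lower (median 2.19). Itln1, an intestinal lectin, ranged from 16411 to 49622 CPM in Paneth samples (median 38894) and from 57.2 to 446 in progenitors (median 332), a log2 difference of 6.95 ± 0.37. Ang4, an antimicrobial ribonuclease, ranged from 3419 to 10368 CPM against 3.32 to 90.3, a difference of 7.70 ± 0.58. The pancreatic-type lipase genes Pnliprp2 and Clps (its cofactor colipase) differed by 7.93 ± 0.48 and 7.23 ± 0.42. Habp2, a secreted serine protease among the Paneth markers, held 37.7 to 216 CPM against 0.0922 to 5.14 and differed by 6.25 ± 0.33 (edgeR adjusted p = 1.2e-15). Lyz2, the macrophage-type lysozyme next to Lyz1, differed by 7.29 ± 0.55 from far fewer reads, with 4.88 to 48.6 CPM against 0 to 0.635. Smaller differences were seen for Guca2b, the hormone uroguanylin (3.58 ± 0.25), and Rnase4, a ribonuclease (2.31 ± 0.18). The 3 lower members were Mptx1, Tff3, a goblet cell trefoil peptide, and Pigr, which carries IgA across the epithelium (-0.34 ± 0.10, edgeR adjusted p = 0.0098, and 0.056 with the animal as a block).

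Signals to neighbouring cells differed gene by gene. Of 20 niche ligands and related genes tested, out of 36 listed, 8 were higher, 2 lower and 10 not called, with a median log2 difference of 0.41. Wnt3, the Wnt ligand that Paneth cells give to stem cells, lies at chr11:103774150-103817957 on the plus strand. It ranged from 32.5 to 136 CPM in Paneth samples (median 99.9) and from 0 to 3.93 in progenitors (median 0.492), with no overlap. Its log2 difference was 6.44 ± 0.55 (edgeR adjusted p = 1.5e-08). Bmp7, a ligand of the BMP family, held 37 to 81.8 CPM against 6.79 to 18.4, also without overlap, and differed by 2.20 ± 0.23. Egf, an epidermal growth factor, ranged from 0.757 to 42.8 CPM (median 16.8) against 0 to 9.06 (median 1.12), so the groups overlapped, and differed by 2.87 ± 0.61 (edgeR adjusted p = 0.00076). Kit, a receptor tyrosine kinase, was higher by 2.08 ± 0.32, whereas its ligand Kitl was lower by 1.43 on the log2 scale (-1.43 ± 0.39, edgeR adjusted p = 0.0082).

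Notum, an enzyme that removes the lipid from Wnt proteins and so inactivates them, was counted in 11 of 12 Paneth samples and in 1 of 10 progenitor libraries. Paneth samples held 342 Notum counts and progenitors 3, a ratio of normalised counts of 182 with a 95% exact counting interval of 61.7 to 887, which covers counting error only. Bst1, an ectoenzyme that makes cyclic ADP-ribose, ranged from 0 to 34.4 CPM in Paneth samples (median 4.99) and from 0 to 0.632 in progenitors, a log2 difference of 5.83 ± 0.89. Both genes were at 0 in some Paneth samples, so the groups overlapped. The EGF family ligands Hbegf (1.17 ± 0.39) and Areg (2.14 ± 0.75) were higher, with edgeR adjusted p of 0.031 and 0.04, and neither was called with the animal as a block (edgeR adjusted p = 0.18 and 0.24). Wnt6, a Wnt ligand, was lower on 17 counts against 121 (-3.66 ± 1.11, edgeR adjusted p = 0.018, and 0.27 with the block).

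Of 26 Notch pathway genes tested, 3 were higher (11.5%), 2 lower (7.69%) and 21 not called, with a median of 0.01, shares near those over all genes tested (12.2% and 7.52%). The ligands Dll1 and Dll4, which Paneth cells present to stem cells, had log2 differences of -0.28 ± 0.26 (edgeR adjusted p = 0.5) and 0.61 ± 0.37 (edgeR adjusted p = 0.28). Dll1 ranged from 9.74 to 63.8 CPM in Paneth samples and from 16.2 to 58.3 in progenitors. Adam10, the protease that cuts Notch receptors after ligand binding, was lower by 1.29 on the log2 scale (-1.29 ± 0.24), with 5.87 to 21 CPM against 19.7 to 42.4. Its relative Adam17 was also lower (-1.17 ± 0.39, edgeR adjusted p = 0.031, and 0.22 with the block). Hes6, a Notch-related repressor, was higher by 0.71 ± 0.15 (edgeR adjusted p = 0.00067, and 0.087 with the block), and the receptor Notch4 by 3.50 ± 0.85 (edgeR adjusted p = 0.0028, and 0.11 with the block). Dtx3, a Deltex ubiquitin ligase, had 181 counts against 2, a ratio of 144 with a 95% exact counting interval of 39.4 to 1202.

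Of 45 lineage transcription factors tested, 8 were higher (17.8%) and 3 lower (6.67%), beside 12.2% and 7.52% of all genes tested. The median was 0.35, and 5 of the 8 were called again with the animal as a block. Bhlha15 (Mist1), a driver of secretory cell maturation at chr5:144190286-144194441 on the plus strand, ranged from 63.1 to 253 CPM in Paneth samples (median 143) and from 3.53 to 21.9 in progenitors (median 8.26). Its log2 difference was 4.06 ± 0.29 (edgeR adjusted p = 9e-12), with no overlap. Sox4 (2.68 ± 0.25), Ascl2 (1.81 ± 0.23) and Sox9 (1.68 ± 0.25), a factor required for Paneth cells, were higher as well. Atoh1, the master factor of the secretory lineage, differed by 0.27 ± 0.22 (edgeR adjusted p = 0.45). Gfi1 (0.24 ± 0.49), Spdef (0.52 ± 0.24) and Xbp1 (0.07 ± 0.12) were not called either, with edgeR adjusted p of 0.79, 0.13 and 0.74. Spdef passed with the animal as a block (0.88, edgeR adjusted p = 0.022). Xbp1, which drives expansion of the secretory pathway, ranged from 207 to 557 CPM in Paneth samples and from 266 to 449 in progenitors. The factors of absorptive cells Isx (-1.02), Hnf4a (-0.43) and Gata4 (-0.73) were the 3 that were lower.

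Of 36 granule and exocytosis genes 13 were higher and 1 lower (median 0.75), and 9 of the 13 were called again with the animal as a block. The list shares members such as Chga, Chgb, Cpe and Pcsk1 with the enteroendocrine markers below, which varied widely between Paneth animals. The part of hormone cells in its count was not tested. Slc30a2, a zinc transporter of secretory granules, held 12.6 to 94.1 CPM in Paneth samples and 1.16 to 6.07 in progenitors, a log2 difference of 3.76 ± 0.32. Sytl1, which docks granules, differed by 2.43 ± 0.22, and Stxbp2, which regulates their fusion, by 0.75 ± 0.15. The lower gene was Vamp3, a fusion protein (-0.60 ± 0.21, edgeR adjusted p = 0.042). When mice aged 26 and 27 months were left out, 6 of the 36 were higher. All samples of those ages came from males, and 9 Paneth and 7 progenitor samples remained in this setting. A call lost in it, here and below, can therefore reflect fewer samples or fewer males. Of 37 genes of the unfolded protein response and protein folding in the ER, 10 were higher and 11 lower, and of the latter 4 were also called with the animal as a block. Edem2 (1.30 ± 0.18) and Edem1 (1.15 ± 0.18), which pass misfolded glycoproteins on to degradation, and Asns, an amino acid response gene (0.97 ± 0.17), were higher. Agr2, a disulfide isomerase of mucus-producing cells, ranged from 341 to 1304 CPM against 1088 to 3114 and was lower by 1.74 on the log2 scale (-1.74 ± 0.21). Hspa5, the ER chaperone BiP, was lower by 0.79 (-0.79 ± 0.13).

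Of 55 genes of the translocon and early secretory pathway, 5 were higher (9.09%) and 8 lower (14.55%), with a median of -0.06. Over all genes tested the shares were 12.2% and 7.52%. Ssr2, a translocon subunit, held 101 to 205 CPM in Paneth samples and 211 to 307 in progenitors, without overlap (-0.69 ± 0.12). The oligosaccharyltransferase subunits Ostc (-0.97 ± 0.15) and Rpn1 (-0.56 ± 0.11) were lower too. Of 38 autophagy and lysosome genes 9 were higher and 2 lower (median 0.39), and 5 higher when mice aged 26 and 27 months were left out. The autophagy genes Atg7 (1.69 ± 0.23), Ulk1 (1.48 ± 0.25) and Sqstm1 (1.06 ± 0.14), and the lysosomal membrane gene Lamp2 (1.23 ± 0.22), were higher. Ctss, a lysosomal protease, was lower (-1.09 ± 0.20) and did not overlap between the groups. Of 23 zinc transporters and metallothioneins, 5 were higher and none lower: Slc30a2, Slc39a13 (1.85 ± 0.39), Slc30a9 (0.86 ± 0.30), Slc39a11 (0.52 ± 0.18) and Slc39a7 (0.51 ± 0.14). Slc30a9 and Slc39a7 were not called with the block (edgeR adjusted p = 0.17 and 0.11), and 3 of the 23 were called without Progenitor male 1.

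**Figure D2:**
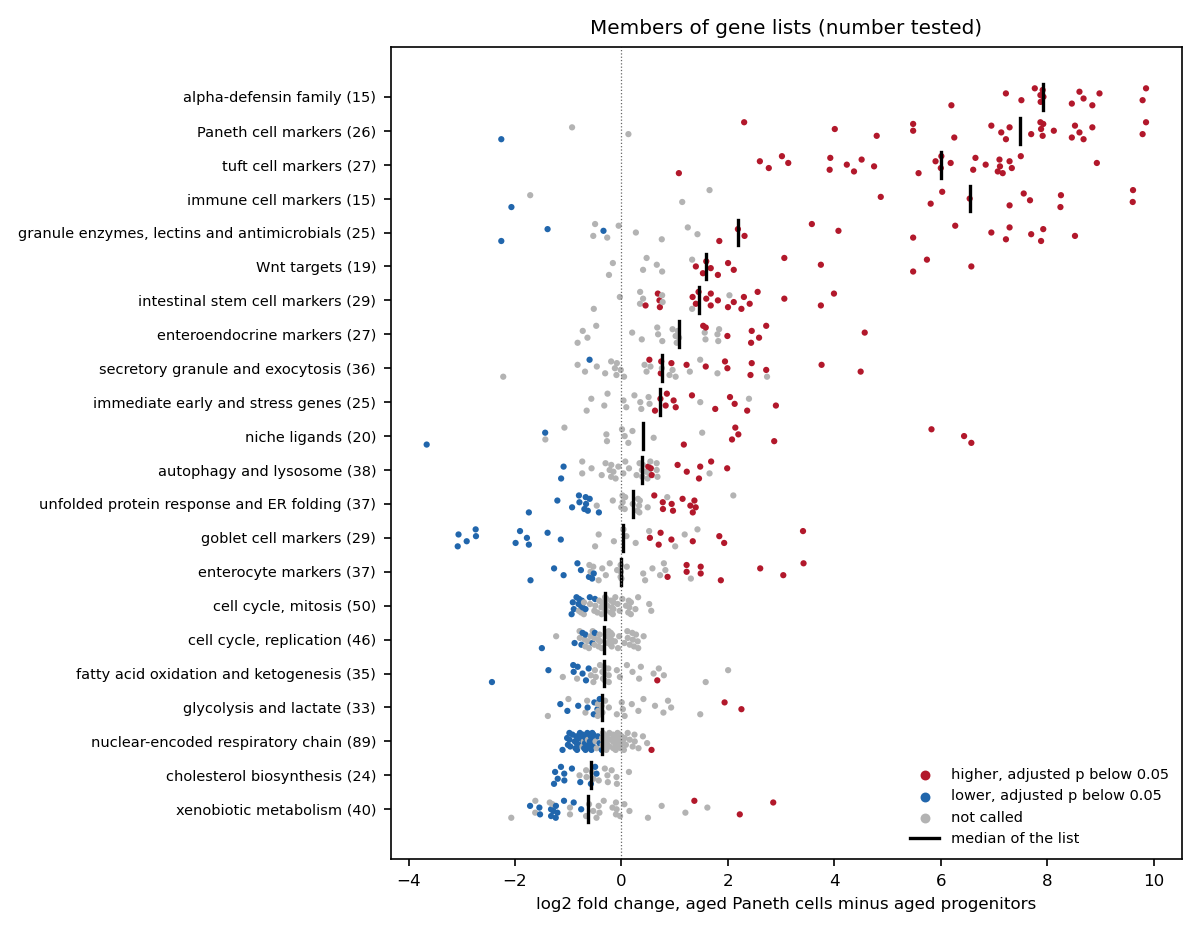
Log2 fold change of each tested member of 22 gene lists, aged Paneth cells minus aged progenitors, with called genes in red (higher) or blue (lower), genes not called in grey and the list median as a black bar. Alpha-defensins, Paneth markers, tuft markers and immune markers lie far to the right, and list medians between 0 and about 1.45 turn negative when library totals are left unscaled.

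Stem cell markers were higher in Paneth samples than in progenitors. Of 29 tested, 20 were higher, none lower and 9 not called, with a median log2 difference of 1.45 (-0.04 with unscaled totals). Lgr5, the receptor for R-spondin that marks stem cells and whose locus carries the GFP, lies at chr10:115450311-115587780 on the minus strand. It ranged from 5.45 to 53 CPM in Paneth samples (median 23) and from 0 to 10.3 in progenitors (median 2.51), with overlap. Its log2 difference was 3.06 ± 0.49 (edgeR adjusted p = 1.4e-05), although the Paneth gate was GFP negative and the progenitor gate GFP medium to low. Olfm4, a secreted stem cell marker, ranged from 1179 to 3766 CPM (median 2137) against 427 to 1189 (median 806), a difference of 1.45 ± 0.15 (edgeR adjusted p = 6e-09). Ephb3, a receptor that holds Paneth cells at the crypt base (3.75 ± 0.38), and Rgmb, a BMP co-receptor (2.30 ± 0.25), did not overlap. Of 19 Wnt targets 12 were higher and none lower (median 1.59), among them Nkd1, a feedback inhibitor, with 3.3 to 25.3 CPM against 0 to 1.01 (5.74 ± 0.64). The Wnt target list shares Lgr5, Sox9 and Ephb3 with the stem cell markers and Mmp7 with the Paneth markers.

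Cell cycle genes leaned lower. Of 46 replication genes 7 were lower and none higher (median -0.32), and of 50 mitosis genes 12 were lower and none higher (median -0.31). Rrm2, a subunit of the enzyme that makes deoxynucleotides, held 3.25 to 31.6 CPM in Paneth samples and 16.7 to 48.4 in progenitors (-1.50 ± 0.30). Pcna, the replication clamp (-0.68 ± 0.18), Ccna2, an S and G2 phase cyclin (-0.80 ± 0.17), and Birc5, a mitotic survival factor (-0.74 ± 0.16), were lower. Mki67, the proliferation marker, ranged from 57.9 to 199 CPM against 108 to 191 and was not called (-0.38 ± 0.17, edgeR adjusted p = 0.11). With only the first library of each Paneth animal 0 mitosis genes and 3 replication genes were called lower, and with mice aged 26 and 27 months left out, 4 and 3. Of 18 inhibitors and markers of cell cycle exit 4 were higher and 3 lower. Among the higher were the growth arrest gene Gadd45g, with 106 to 311 CPM against 11.8 to 30.5 (3.38 ± 0.20, edgeR adjusted p = 8.2e-15), and Cdkn1a (p21), at 1.48 ± 0.23.

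Tuft cells are rare chemosensory cells of the epithelium. Of 33 tuft cell markers listed, 27 passed the filter and all 27 were higher in Paneth samples, with a median of 6.00. Of the 27, 15 did not overlap. Members near 0 in progenitors passed the filter through the Paneth samples. Dclk1, a microtubule-linked kinase and the standard tuft marker, lies at chr3:55242364-55539068 on the plus strand. It ranged from 11.1 to 54.4 CPM in Paneth samples (median 35) and from 0 to 1.01 in progenitors (median 0.0722), a log2 difference of 7.34 ± 0.54 (edgeR adjusted p = 2.6e-12). Trpm5, a cation channel of taste signalling (5.90 ± 0.44), and Avil, an actin-binding protein (4.37 ± 0.34), did not overlap either. Cd24a, which encodes the sorted surface protein CD24 and is counted among tuft markers, held 383 to 1170.5 CPM against 98.9 to 159 (2.60 ± 0.15). The summed tuft markers ranged from 1056 to 2882 CPM in Paneth samples and from 133 to 208 in progenitors. Sums of Paneth markers ran from 121290 to 340500 and from 451 to 2672 CPM. The tuft sum includes Cd24a, with 40921 counts in Paneth samples and 10916 in progenitors, so it is not independent of the CD24 gate. A sum without Cd24a was not made.

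Markers of enteroendocrine cells, the hormone cells of the gut, varied widely between Paneth animals. Of 27 tested 8 were higher and none lower (median 1.08). The summed list ranged from 294 CPM in Paneth female 1 to 3665 in Paneth male 6, and from 306 to 1137 in progenitors, so the groups overlapped. Chga, a granin of hormone granules, ranged from 52.5 to 988 CPM (median 304) against 19.9 to 153 (median 59.7), a difference of 2.45 ± 0.47 (edgeR adjusted p = 0.00092). Sst, the hormone somatostatin, reached 439.5 CPM in Paneth female 3, 128 in male 1 and 0.541 to 57.9 in the other 10 samples, against 0 to 10.8 in progenitors (4.57 ± 1.14, edgeR adjusted p = 0.0072). The number of members higher was 5 without Paneth female 5 and 2 when mice aged 26 and 27 months were left out.

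Immune cell transcripts were counted in few reads, most of them in Paneth samples. Of 40 immune markers, which include Lyz2 from the Paneth markers, 15 passed the filter. Of these, 11 were higher and 1 lower, and 9 of the 11 were called again with the animal as a block. Members near 0 in progenitors passed through the Paneth samples, so these counts and the median of 6.54 are partly set by the filter. The median was the same with the 2 genes at 0 in progenitors set at their counting bound. Values that stay on the same side of a median cannot move it, so this setting does not test the effect of the filter. The summed markers ranged from 106 to 505 CPM in Paneth samples (median 137, highest in male 5) and from 4.88 to 19.4 in progenitors. Ccl5, a chemokine of T cells, was counted in all 12 Paneth samples (1254 counts) and 1 progenitor library (1 count), a ratio of 2002 with a 95% exact counting interval of 359 to 79120. Igkc, an antibody light chain, had 1659 counts against 3, a ratio of 883 (302 to 4285). Gzma, a granzyme of killer lymphocytes, held 2.03 to 51.4 CPM against 0 to 0.553, and Gzmb and Cd7 were at 0 in all 10 progenitor libraries. Mcpt1, a mast cell protease outside that list, reached 689 CPM in Paneth male 5 and 0 to 7.78 in the other 11 samples, with no count in the progenitors. Against 3 counts over the progenitor group Mcpt1 was at least 742-fold higher, a value that rests mostly on that animal. Without Paneth male 6 the immune markers called higher numbered 8. The marker that was lower was Itgam, an integrin of myeloid cells (-2.07 ± 0.67, edgeR adjusted p = 0.026, and 0.21 with the block). Of 22 stromal and endothelial markers 6 passed the filter and none was called, with sums of 11.5 to 120 CPM against 13.5 to 69.1, and Col6a1, Lum, Pdgfra and Kdr were at 0 in both populations. The part of tuft, enteroendocrine, immune and goblet cells in the values of the other lists was not tested.

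**Figure D3:**
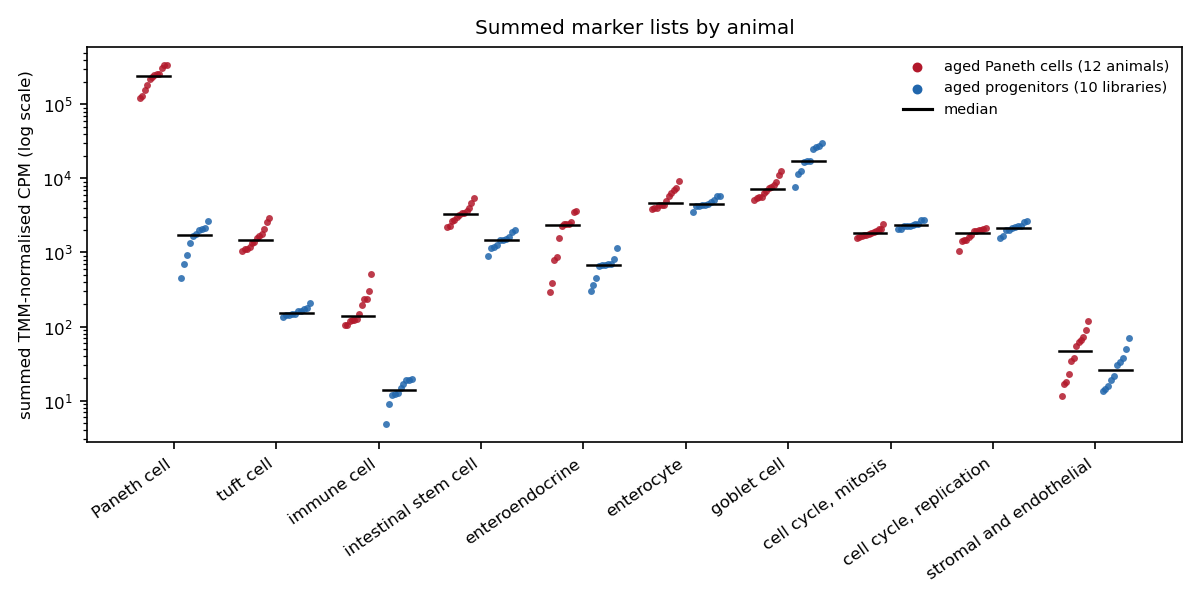
Summed TMM-normalised CPM of 10 marker lists in each aged Paneth animal (red, 12) and aged progenitor library (blue, 10) on a log axis, with medians as black lines. Paneth, tuft and immune sums do not overlap between the populations, enteroendocrine sums spread from 294 to 3665 CPM among Paneth animals, and goblet sums are mostly higher in progenitors. The tuft sum includes Cd24a, which encodes a protein used in the sort.

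Goblet cell genes were divided. Of 29 markers 11 were lower and 8 higher in Paneth samples, and all 11 lower ones were also called with the animal as a block. The summed list ranged from 5060 to 12739 CPM in Paneth samples (median 7170) and from 7645 to 30153 in progenitors (median 17060). The part of goblet cells in the progenitor libraries was not tested. Fcgbp, a mucus protein that binds IgG Fc, lies at chr7:28071236-28120862 on the plus strand. It ranged from 211 to 1662 CPM in Paneth samples (median 632) and from 1882 to 8780.0 in progenitors (median 4333), without overlap, and was lower by 2.91 on the log2 scale (-2.91 ± 0.34, edgeR adjusted p = 4.2e-06). Zg16, a mucus lectin at chr7:127050156-127087328 on the minus strand, ranged from 138 to 1511 CPM against 1396 to 6434 and was lower by 3.08 (-3.08 ± 0.38, edgeR adjusted p = 7.2e-06). Only Paneth male 2, at 1511 CPM, reached into the progenitor range for Zg16, and the same animal had the highest Fcgbp level among Paneth samples. Clca1, a secreted metalloprotease of mucus (-3.06 ± 0.44), did not overlap, with 31.2 to 340.0 CPM against 482 to 2029. Tff3 (-1.39 ± 0.24), Klk1, a kallikrein (-1.14 ± 0.17), Fer1l6 (-2.73 ± 0.57), Bcas1 (-1.99 ± 0.39) and Capn9, a calpain (-1.91 ± 0.35), were lower too. Muc2, the gel-forming mucin itself, ranged from 575 to 2098 CPM against 671 to 2229 and was not called (-0.43 ± 0.25, edgeR adjusted p = 0.26). Qsox1, a secreted disulfide oxidase, was higher without overlap, at 95.6 to 329.7 CPM against 23.2 to 58.8 (1.93 ± 0.19).

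Enterocyte markers also went both ways, with 9 of 37 higher and 8 lower (median -0.01), and 4 of the 8 were called again with the animal as a block. The apolipoprotein genes Apoa4 and Apoa1, which package dietary fat, were higher by 3.42 ± 0.45 and 3.04 ± 0.44. Apoa1 ranged from 159.8 to 1281 CPM in Paneth samples and from 16 to 219 in progenitors. Cdhr5, a brush border cadherin, was higher by 1.23 ± 0.14, while Slc7a9, an amino acid transporter, was lower (-1.09 ± 0.21). Alpi, the brush border alkaline phosphatase, was not called (-0.58 ± 0.34, edgeR adjusted p = 0.25) but passed with the animal as a block (-0.80, edgeR adjusted p = 0.0081).

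The mitochondrial genome took 51.6 ± 10.9% of the counts in aged Paneth samples (SD, n = 12) and 4.18 ± 1.31% in aged progenitors (SD, n = 10). The Paneth share ran from 31.4% to 65.8% with a median of 55.0%, and the progenitor share from 1.58% to 6.22%. The difference of 47.5 percentage points had a two-sided permutation p of 2e-05, the smallest that 100000 resamples can give. It was 49.5 points within males (exact permutation p = 0.0025) and 44.4 within females (exact permutation p = 0.0079). In the 6 animals that gave both populations it was 49.7 points (exact paired permutation p = 0.031, the smallest that 6 pairs allow). All 8 mitochondrially encoded protein genes that passed the filter were higher, with a median log2 difference of 5.01. mt-Co1, a subunit of complex IV at positions 5328 to 6872 of the mitochondrial chromosome, ranged from 10416 to 29066 CPM against 586 to 1314 (4.15 ± 0.20, edgeR adjusted p = 1.7e-14). mt-Nd4 of complex I and mt-Cytb of complex III differed by 5.51 ± 0.30 and 5.36 ± 0.28.

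Of 89 nuclear-encoded respiratory chain genes 40 were lower, 1 higher and 48 not called, with a median of -0.37, and 36 of the 40 were called again with the animal as a block. In 13 of them every progenitor library was above every Paneth sample. Uqcrc2, a core subunit of complex III, ranged from 226 to 439 CPM in Paneth samples (median 297) and from 594 to 763 in progenitors (median 675), a log2 difference of -1.11 ± 0.11 (edgeR adjusted p = 1.2e-09). Sdha of complex II (-1.01 ± 0.12) and the ATP synthase genes Atp5f1 (-0.85 ± 0.11), Atp5g3 (-0.78 ± 0.09) and Atp5b (-0.74 ± 0.09) did not overlap between the populations. By complex, 16 of 38 nuclear subunit genes were lower in complex I (median -0.34), all 4 in complex II (median -0.62), 5 of 9 in complex III (median -0.53), 7 of 12 in complex IV (median -0.58) and 5 of 17 in complex V (median -0.35). The exception was Uqcrq, a small subunit of complex III, at 189.5 to 626 CPM against 209.5 to 361 (0.57 ± 0.14, edgeR adjusted p = 0.0031, and 0.20 with the block). With the mitochondrial genes left out before scaling, no called gene named in the text lost its call.

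**Figure D4:**
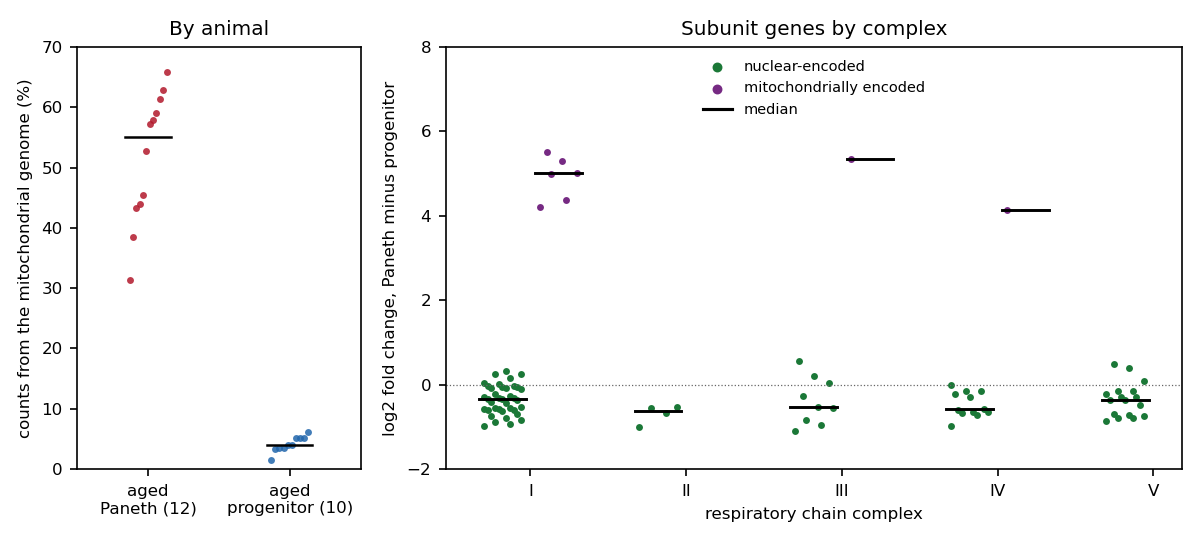
Left, the share of counts from the mitochondrial genome in each aged Paneth animal (red, 12) and progenitor library (blue, 10), in percent, with medians as black lines; right, the log2 fold change (Paneth minus progenitor) of respiratory chain subunit genes by complex, nuclear-encoded in green and mitochondrially encoded in purple. The shares do not overlap, and the complex medians are 4.15 to 5.36 for mitochondrial genes and -0.62 to -0.34 for nuclear ones.

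Other metabolic lists leaned lower in Paneth samples. Of 24 cholesterol synthesis genes 11 were lower and none higher, with a median of -0.56, including Cyp51 (-1.27 ± 0.21), Hmgcs1, which starts the pathway (-1.20 ± 0.21), and Sqle (-1.14 ± 0.23). Of these 11, 6 were called again with the animal as a block, 6 cholesterol genes were lower without Progenitor female 3 and 1 with the first library of each Paneth animal. Of 35 genes of fatty acid oxidation and ketogenesis 8 were lower and 1 higher. Cpt1a, which admits fatty acids to mitochondria, held 57.7 to 142 CPM against 149.7 to 306, without overlap (-1.37 ± 0.16), and the higher gene was Acaa1a, a peroxisomal thiolase (0.67 ± 0.18, and edgeR adjusted p = 0.20 with the block). Of 40 xenobiotic metabolism genes 12 were lower and 3 higher (median -0.64). Ces1f, a carboxylesterase (-1.72 ± 0.22), Cyp2s1 (-1.28 ± 0.19) and the exporter Abcg2 (-1.23 ± 0.19) were lower, and Cyp3a11 (2.85 ± 0.80), Cyp2b10 (2.22 ± 0.51) and the epoxide hydrolase Ephx1 (1.37 ± 0.22) were higher. Cyp3a11 held 0 to 41.9 CPM against 0 to 4.98 and was not called by limma-voom (adjusted p = 0.12). It was called in 32 of 36 alternative fits with scaled totals. Cyp2b10, at 2.63 to 61.7 CPM against 0.208 to 10.0, was called in 34 of 36.

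Of 33 genes of glycolysis and lactate handling 8 were lower and 2 higher (median -0.36), and 5 of the 8 were called again with the animal as a block. Ldha, lactate dehydrogenase, ranged from 450.0 to 822 CPM in Paneth samples and from 469.9 to 1152 in progenitors and was lower by 0.81 (-0.81 ± 0.12). Pfkp, a phosphofructokinase (-1.02 ± 0.15), the lactate importer Slc16a1 (-1.15 ± 0.25) and the pyruvate carrier Mpc2 (-0.64 ± 0.14) were lower. The 2 higher genes were Pfkfb3, a glycolytic activator (2.25 ± 0.72, edgeR adjusted p = 0.023, and 0.25 with the block), and the lactate exporter Slc16a3 (1.94 ± 0.64, edgeR adjusted p = 0.029), both counted in few reads.

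Among the most counted progenitor genes, Lypd8, a secreted barrier protein, held 964 to 1939.7 CPM in Paneth samples and 2763 to 4309.7 in progenitors, without overlap (-1.23 ± 0.11). Dmbt1, a scavenger receptor of the mucosa, was lower by 1.18 (-1.18 ± 0.10). Arg2, the mitochondrial arginase, held 84.1 to 388 CPM against 411 to 826 (-1.95 ± 0.19). Other large decreases were in Scin, an actin-severing protein (-2.45 ± 0.45, edgeR adjusted p = 0.00034, and 0.06 with the block), Slc6a20a, a proline transporter (-2.12 ± 0.34), Pqlc3 (-1.87 ± 0.43), Bche, butyrylcholinesterase (-1.82 ± 0.28), and Ces2g, a carboxylesterase (-1.79 ± 0.23). In the other direction Lamb1, a laminin chain of basement membranes, held 6.98 to 139 CPM in Paneth samples against 0 to 1.75 (8.62 ± 0.64).

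Of 82 cytosolic ribosomal protein genes 16 were higher and 1 lower, Rpl22l1 (-0.66 ± 0.21, edgeR adjusted p = 0.024, and 0.057 with the block), with a median of 0.09. Of these 16, 6 were called again with the block and 8 genes were higher without Paneth female 2. Rpsa, a small-subunit protein, held 1355 to 5291 CPM against 1104 to 1810.2 (1.28 ± 0.15), while Rpl4, of the large subunit, was not called (0.08 ± 0.10, edgeR adjusted p = 0.64). Of 46 ribosome biogenesis genes 3 were higher (6.52%, beside 12.2% of all genes tested), Noc2l, Nop14 and Nop56, at 0.54, 0.76 and 0.82. None of the 3 was called with the block, and 1 gene was called without Progenitor male 4. Of 25 immediate early and stress genes 12 were higher and none lower (median 0.73), including the transcription factors Fosb (2.36 ± 0.46), Atf3 (2.13 ± 0.43) and Jun (2.04 ± 0.25), and 5 of the 12 were called with the block.

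Of 8 MHC class II genes 1 was higher (H2-Eb1, 0.62 ± 0.20, edgeR adjusted p = 0.026) and 1 lower (Ctss, named above). Cd74, the invariant chain, ranged from 134 to 355 CPM against 87.6 to 330.1 and was not called (0.23 ± 0.18, edgeR adjusted p = 0.40). Of 25 MHC class I genes 6 were lower, 24.0% beside 7.52% of all genes tested (3 of them again with the block, and 3 without Progenitor male 4), including B2m, its light chain (-0.48 ± 0.14), and Erap1, a peptide trimmer (-0.94 ± 0.17). Of 38 interferon-stimulated genes 5 were higher (13.2%, beside 12.2% of all genes tested) and 1 lower. Ifitm3, an antiviral membrane protein, was higher by 1.26 ± 0.20, and Lgals3bp, a secreted glycoprotein, was lower without overlap (-0.64 ± 0.10). Ly6e, a membrane protein linked to virus entry, ranged from 505 to 800.3 CPM against 436 to 653 and was not called (0.22 ± 0.10, edgeR adjusted p = 0.12).

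The aged contrast was set against the same contrast in young mice, as a test of the difference between them. Of 12589 genes tested, edgeR called 0 in either direction (0% of the genes), with 629 at an unadjusted p below 0.05 (5.00%) and a smallest adjusted p of 0.500. DESeq2 and limma-voom also called 0, with 740 and 791 genes at an unadjusted p below 0.05. The median standard error of the difference was 0.486 on the log2 scale. Lyz1 differed from progenitors by 7.89 in aged and 7.86 in young mice, and Lgr5 by 3.06 and 3.39. Wnt3 differed by 6.44 and 4.96, a difference of 1.47 at an unadjusted edgeR p of 0.023, and Bst1 by 5.83 and 2.02 (unadjusted p = 0.0030), and neither passed adjustment over all genes. Sst went the other way, at 4.57 in aged and 8.94 in young mice (unadjusted edgeR p = 0.0093). For Mmp7 the values were 5.48 and 4.73, for Bhlha15 4.06 and 3.08, for Olfm4 1.45 and 1.09, for mt-Co1 4.15 and 4.40, and for Zg16 -3.08 and -3.38.

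**Figure D5:**
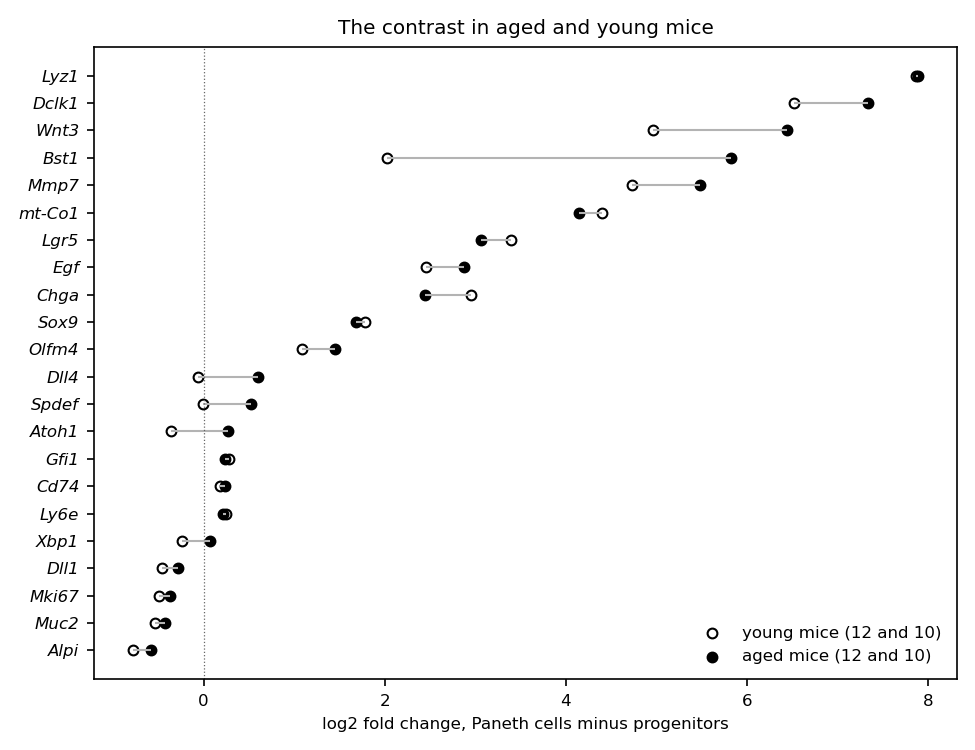
Log2 fold change of Paneth cells minus progenitors in aged mice (filled, 12 and 10 samples) and young mice (open, 12 and 10 samples) for 22 genes described in the text. No gene differed between the ages after adjustment; Bst1 is plotted at 5.83 in aged and 2.02 in young mice, and aged values between 0 and about 1.45 turn negative when totals are left unscaled.

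The contrast was also compared between aged males and females. Of 11953 genes edgeR called 0 in either direction (0% of the genes), with 510 at an unadjusted p below 0.05 (4.27%). DESeq2 and limma-voom called 0 as well, with 653 and 722 genes at an unadjusted p below 0.05. The median standard error was 0.671 on the log2 scale.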

How the data were processed

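Reads were trimmed with cutadapt 3.0, aligned with STAR 2.7.9a to mm10 and counted with HTSeq 0.13.5, per the submitters' processing notes, which also name DESeq2 1.30.1. No source used here states the annotation release or the strand setting of the counting. The deposited table holds the authors' raw counts for 32285 genes, of which 32158 have a symbol, in 1 column per library. Technical Paneth libraries were summed per animal. Promoter windows came from RefSeq (GRCm38.p6) and gene positions from GENCODE M21 (GRCm38).

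The filter filterByExpr (10 counts) chose the genes, TMM set the scaling, and the test was the quasi-likelihood test of edgeR 4.0.16 in R 4.3.3, in 4 groups of cell type and sex, with the Benjamini-Hochberg adjusted p below 0.05. The standard error is the log2 difference divided by the square root of F. The scripts were tested on simulated data. In single values a permutation test over samples was used, exact or with 100000 resamples. Alternatives were DESeq2 1.42.0, limma-voom 3.58.1, other scalings and filters, an animal block, left-out libraries, 1 library per animal and leaving out animals of 26 and 27 months.

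The animal names in the labels pair samples of the 2 populations. Residual correlation within an animal had a median of 0.0665 in 6 pairs (0.0045 to 0.125) and between other animals of the same sex -0.0052 in 54 pairs. The animal block is printed beside each gene described whose call it ended, but not beside every list count. With it, 8 of the 12 mitosis genes and 6 of the 8 fatty acid oxidation genes were called lower again. Called higher again were 6 of 8 enteroendocrine markers, 6 of 8 niche ligands and 10 of 12 Wnt targets. Other list counts given without the block were not all kept under it.

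Genes were named by rule: the 10 largest differences each way with a mean of at least 20 CPM in the higher group, the 8 largest each way with at least 10 CPM in both, the 10 most counted nuclear genes of each group, up to 5 members of each list with the smallest p, and a set of marker genes. Kcnn4, Tnfrsf21, Mptx1, Kitl, Wnt6, Hbegf, Areg, Isx, Hnf4a, Gata4, Vamp3, Pfkfb3, Slc16a3, Uqcrq, Rpl22l1, Acaa1a, Ephx1, Cyp2b10, Cyp3a11, Itgam, Gzmb, Cd7 and the stromal markers named were chosen after their values were seen. A withheld item is not reported here. The comparison and the gene lists were chosen with earlier results of these data known. Intervals and floors (3 counts) cover counting error only. Where nothing shows that samples came from separate animals, p-values measure only the spread between samples.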

Additional observations from a re-analysis of the deposited data

Results flagged for a closer look

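In 25 of 172 values tested among the 10 progenitor libraries, 1 library lay far from the other 9 relative to the range of the group. The nominal share of this rule is about 1 in 20, but it cannot be used here to judge an excess. Genes counted in 1 progenitor library alone, such as Ccl5 (1 count) and Notum (3 counts), are flagged by the rule itself. Values of the same library are also not independent, and several flags fall in Progenitor female 5. Groups of more than 10 samples, such as the Paneth animals, were not tested. No explanation was tested.

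Progenitor female 5 had the highest levels of several genes. Its Mki67 level was 191 CPM where the next library had 140.4, and Birc5 was 133 CPM against 100.0. Sdha was 752 CPM against 622, Uqcrq 361 against 271, Rpsa 1810.2 against 1402, Ifitm3 163 against 107 and Lgals3bp 709 against 503. Trpm5 was 4.24 CPM against 1.91 and Bst1 0.632 against 0.312. Ldha was lowest in that library, at 469.9 CPM where the next had 967.

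Progenitor male 2 was highest for Ostc, at 371 CPM against 254, Apoa1, at 219 against 109.5, and Defa22, at 5.91 against 2.17. Progenitor male 1 was highest for Lgr5, at 10.3 CPM against 4.06, and Pfkfb3, at 4.26 against 1.92. Progenitor male 5 was highest for Cd74, at 330.1 CPM against 216, Hmgcs1, at 66.9 against 50.6, and Nkd1, at 1.01 against 0.433.

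Progenitor female 1 was highest for Sst, at 10.8 CPM against 5.31, Lamb1, at 1.75 against 0.812, and Notum, at 0.476 where the other libraries had 0. Progenitor female 4 was highest for Habp2, at 5.14 CPM against 1.98, Dclk1, at 1.01 against 0.472, and Slc16a3, at 5.04 against 2.70. Progenitor male 4 had the only Ccl5 level above 0, at 0.118 CPM.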

How the results depend on the processing

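Under the other settings the mitochondrial share kept its direction and its side of the threshold, at 46.2 to 49.3 percentage points when each of the 22 samples was left out. The genes called higher numbered 1334 to 1502 and those called lower 759 to 962 when each was left out. The difference between ages and that between sexes stayed at 0 genes in each of 44 and 22 such fits, and with the first library of each Paneth animal 1 gene was lower for the sex difference. With unscaled library totals 295 genes were higher and 8983 lower. limma-voom called 1714 genes lower, 1832 with the animal as a random block, and 1458 were lower with all groups of the series in 1 fit. With the first library of each Paneth animal 652 were higher and 451 lower, and with mice aged 26 and 27 months left out 971 were higher. The cause of these differences was not tested.

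With the animal as a replicate block 750 genes were higher and 632 lower. Title numbers shared by samples went with a median residual r of 0.0053 (10 pairs). Pairs of the same animal had only 0.0665, so this r cannot show whether the numbers pair samples. By the animal names, 8 of the 10 pairs joined different animals. A block on the title numbers gave 1019 higher and 1059 lower. Paired within 6 animals the mitochondrial share differed by 49.7 points.

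Calls that were lost when at least 1 library was left out were those of Adam17, Areg, H2-Eb1, Hbegf, Mcpt1, Mptx1, Nop56, Slc16a3, Slc30a9, Slc39a11 and Vamp3 (5 to 17 libraries each). Itgam lost its call without Progenitor female 1 (edgeR adjusted p = 0.059), Pfkfb3 without Paneth female 1 (edgeR adjusted p = 0.0718) and Nop14 without Progenitor male 4 or Paneth male 3 (edgeR adjusted p of 0.0511 to 0.0544). With the first library of each animal 30 of the genes named in the text lost their call, and with mice aged 26 and 27 months left out 23.

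Unscaled totals turned the sign of these log2 differences: Rpl4 -1.43, Xbp1 -1.41, Kcnn4 -1.39, Ly6e -1.29, Cd74 -1.26, Gfi1 -1.23, Atoh1 -1.20, Spdef -1.01, Slc39a11 -0.998, Slc39a7 -0.99, Noc2l -0.98, Uqcrq -0.93, H2-Eb1 -0.88, Dll4 -0.83 (not called in either), Acaa1a -0.79, Hes6 -0.78, Stxbp2 -0.76, Slc30a9 -0.72, Nop14 -0.72, Nop56 -0.67, Asns -0.54, Sqstm1 -0.45, Hbegf -0.38, Edem1 -0.33, Ifitm3 -0.27, Cdhr5 -0.27, Lamp2 -0.25, Rpsa -0.23, Edem2 -0.18, Ephx1 -0.14 and Olfm4 -0.061. Kit, Ascl2, Sox9, Chga, Atg7, Ulk1, Slc39a13 and Cdkn1a kept their sign but were no longer called with unscaled totals. The same held for Fosb, Atf3, Jun, Slc16a3, Pfkfb3, Areg, Cyp2b10 and Cyp3a11. Of the called genes named in the text, 38 lost their call or changed sign in that setting. The depth of 1.37 to 5.68 M nuclear counts in Paneth samples limits what can be called among genes of few counts.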
